A study of Mus musculus with 4 samples.

Results

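Mss51, formerly named Zmynd17, is a gene of skeletal muscle whose protein lies at the mitochondria and carries a MYND zinc finger, a fold through which proteins bind other proteins. It was 1 gene among the 15102 genes measured, and was chosen by its difference between ProMyo and saline muscle in these same arrays. That difference is therefore described here and not tested. 1 probe set of the array, 1432001_at, was mapped to Mss51, and no other gene was mapped to it. It is 1 of 34945 probe sets with a single gene symbol.

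Muscle samples came from 8 male C57Bl/6 mice that were 22 weeks old at collection. All were put on a high fat diet at 8 weeks of age, so both groups share the diet. After 4 weeks on it, each mouse received AAV8 ProMyo in the tibialis cranialis, a muscle of the front of the lower leg, and saline in the same muscle of the other leg. Tissue was taken 10 weeks after the injection. AAV8 is an adeno-associated virus that enters muscle fibres well. ProMyo is taken here as the propeptide of myostatin, which holds mature myostatin inactive; the labels give its name only. The control leg had no empty virus, so an action of the virus and an action of the propeptide cannot be told apart. RNA of 4 animals was mixed in equal amounts for each array, which gave 2 ProMyo arrays (pools 1-4 and 5-8) and 2 saline arrays (pools 1-4 and 5-8).

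Myostatin is a secreted growth factor of the TGF-beta family that limits muscle size. It binds activin type 2 receptors, which act through type 1 receptors on Smad2 and Smad3, and these enter the nucleus with Smad4 and bind DNA. Earlier work in mice reported Mss51 among genes with lower expression after myostatin was inhibited, and reported that muscle cells or mice without Mss51 burn more fuel. In yeast, the protein of the same name switches on translation of Cox1, a core subunit of cytochrome oxidase.

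The sequence at the start of the gene is shown because the motif bound by Smad proteins, the end point of myostatin signalling, can be read in it. The window runs from 250 bases before to 50 bases after the annotated start of Mss51, at chr14:20496852-20497151 on the minus strand of GRCm38.p6, from RefSeq. Capitals mark the 4-base Smad element, GTCT or its complement AGAC.

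Mss51 promoter: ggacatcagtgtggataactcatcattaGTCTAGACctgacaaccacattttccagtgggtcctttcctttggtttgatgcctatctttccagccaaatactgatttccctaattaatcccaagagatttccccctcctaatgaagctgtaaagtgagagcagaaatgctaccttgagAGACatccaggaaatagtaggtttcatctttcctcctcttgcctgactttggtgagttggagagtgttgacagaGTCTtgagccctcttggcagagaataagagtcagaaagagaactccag

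The window held the Smad element 4 times, on either strand. At 222 bases before the start, 2 of them abut as GTCTAGAC, a palindrome that Smad3 and Smad4 are known to bind. The others began 72 bases before and 2 bases after the start. Single elements are common: 88.0% of 32851 promoter windows of this length held at least 1, and 19.9% held 4 or more. The palindrome, which contains 2 of the single elements, was in 70 windows, or 0.213%. A match of letters is no measurement of binding. The 67 genes that carry it include 32 others measured here, of which 13 were higher with ProMyo in both pools and 5 (Cops9, Rmnd5b, Reep1, Cdip1 and Tnfaip3) lower. Over all 15102 genes measured, 29.0% were higher in both pools and 24.0% lower. The differences of the 32 genes ran from -0.27 at Cops9 to 0.60, with a median of 0.05. On either strand, the Mss51 window held no E-box (CANNTG, present in 72.3% of windows), TATA box (TATAAA, 13.6%), CCAAT box (CCAAT, 37.4%) or GC box (GGGCGG, 35.7%). It also held no estrogen-related receptor half-site (AAGGTCA, 4.72%), MEF2 motif (3.19%) or CArG box (1.63%). It had no CpG pair, as in 5.43% of windows, and a GC content of 44.0% against a median of 52.7% over all windows.

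Mss51 was at less than its saline level after ProMyo in each pool of animals. On the log2 scale its level was 6.06 in ProMyo pool 1-4 and 6.58 in ProMyo pool 5-8, against 7.53 in saline pool 1-4 and 7.43 in saline pool 5-8. The groups did not overlap, with the ProMyo arrays lower, and the smallest gap between them was 0.84. The ProMyo arrays were 0.53 apart and the saline arrays 0.10 apart, so the gap between the groups was larger than the spread within either. Group means were 6.32 ± 0.37 in ProMyo muscle and 7.48 ± 0.07 in saline muscle (SD, n = 2 arrays each).

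**Figure D1:**
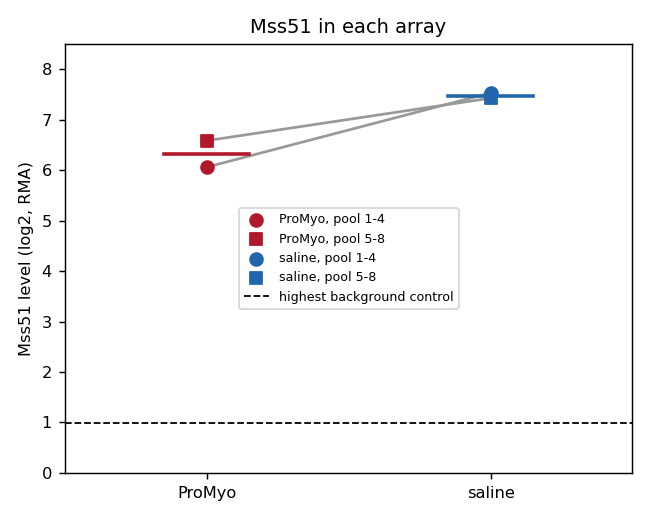
Mss51 level on the log2 scale in each array, ProMyo on the left and saline on the right. Grey lines join the pools with the same number, bars mark the group means and a dashed line marks the highest background control. The ProMyo points (6.06 and 6.58) lie under the saline points (7.53 and 7.43), and all 4 lie far above the controls at 0.99.

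The difference, ProMyo minus saline, was -1.47 in pool 1-4 and -0.84 in pool 5-8, with a mean of -1.16. On a linear scale ProMyo muscle held 0.360 of the saline signal in pool 1-4 and 0.558 in pool 5-8, or 44.8% by the mean. The pools thus gave the same direction and differed in size by 0.63 log2 units, of which 0.53 lay between the ProMyo arrays. All levels were well above background: 27 Bacillus control probe sets, for which no target is expected, reached 0.99 at most, 5.07 log2 units below the lowest Mss51 value. Within single arrays Mss51 was brighter than 92.0% of probe sets in ProMyo 1-4, 94.0% in ProMyo 5-8, 96.6% in saline 1-4 and 96.5% in saline 5-8.

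Array medians of all probe sets lay between 1.06 and 1.11. The saline 5-8 array stood apart: its upper quartile was 2.97, where the other arrays had 3.15 to 3.19, and its spiked-in hybridization controls averaged 11.1, where the others had 10.1 to 10.2. Without that array the Mss51 difference was -1.21, and within pool 1-4, which does not use it, -1.47. The 3' probe sets exceeded the 5' probe sets of Gapdh by 0.58 and 0.74 with ProMyo, against 0.90 and 0.81 with saline. For Actb the excess was larger, 1.64 and 1.72 with ProMyo, against 1.96 and 1.80 with saline. This excess is a measure of RNA integrity and amplification. Its part in the Mss51 difference was not tested.

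Among the 500 probe sets closest to Mss51 in mean brightness, with means from 6.71 to 7.14, Mss51 had the lowest difference. It was also the lowest of the 500 in pool 1-4 taken alone and in pool 5-8 taken alone. The rest of this window had a median near 0.04, and 5% of it lay below -0.24. The next lowest difference was -0.70, at a probe set of Pim3, a serine/threonine kinase. Pim3 stood at 6.73 and 6.65 with ProMyo, against 7.49 and 7.28 with saline, without overlap, and its other probe sets read -0.67 and -0.76. Next came Vgll2, a cofactor of TEAD factors that is specific to skeletal muscle. It stood at 6.54 and 7.22 with ProMyo, against 7.26 and 7.43 with saline, a mean difference of -0.47 with groups that just fail to overlap. The gene 2310022A10Rik and Ap2m1, an adaptor subunit of clathrin-coated vesicles, both stood at -0.46.

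**Figure D2:**
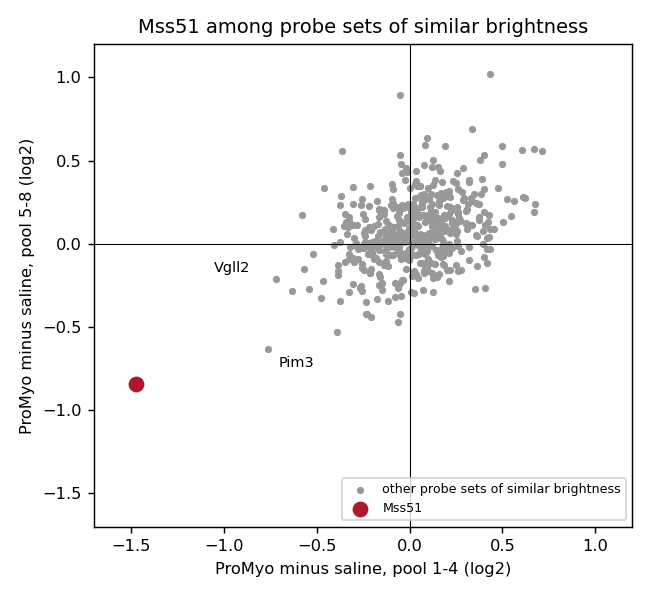
Difference in pool 1-4 (x) and pool 5-8 (y), ProMyo minus saline in log2 units, for the 500 probe sets closest to Mss51 in brightness, with Mss51 in red. Mss51 sits alone at -1.47 and -0.84, and Pim3 at -0.76 and -0.63 is the next lowest by the mean.

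Of all 27156 single-symbol probe sets above the filter on dim signals, Mss51 ranked 6 from the bottom by mean difference, 12 in pool 1-4 and 500 in pool 5-8. Only 1 other probe set was at least as low as Mss51 in both pools: Myl2, the slow regulatory myosin light chain, at -1.80 and -1.89. The 5 probe sets below Mss51 by the mean belonged to Myl2, Ppargc1a, Chad, Klc1 and Kcnd2, and all 5 were dimmer, with means of 2.21 to 3.61 against 6.90 for Mss51. Of the 1941 probe sets at least as bright as Mss51, itself included, no other had as low a difference; Col1a2, a chain of type I collagen, followed at -0.78. The probe set of Ppargc1a, which encodes the mitochondrial coactivator PGC-1alpha, read -1.30, but the 3 brightest probe sets of the same gene read 0.12, 0.17 and 0.16. Directly after Mss51, at rank 7, came a brighter case, a probe set of Eif2b2 with a mean of 6.08. It read -1.14 (-1.76 in pool 1-4 and -0.51 in pool 5-8), but the other probe sets of Eif2b2 read 0.04 and -0.09. Mss51 has no further probe set against which such a disagreement could be checked.

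As background for these descriptions, limma, a linear model with moderated variances fitted across all genes, called 0 of 15102 genes at an adjusted p under 0.05, or 0%, and 874 genes had an unadjusted p under 0.05. The ProMyo values of a gene were both under its saline values in 15.7% of genes. A difference of at least 1.5-fold in both pools was reached by 85 genes lower in ProMyo muscle, Mss51 among them, or 0.563%, and by 156 higher ones, or 1.03%. With quantile normalization between arrays the split was 112 lower and 121 higher. Lower in both pools by any amount were 24.0% of genes, and higher in both 29.0%; these shares are the reference for the counts of gene lists that follow. The median difference over all genes was 0.01. No gene named below passed limma's test.

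The genes whose values over the 4 arrays most resembled those of Mss51 were found by the Euclidean distance between log2 values, each gene centred on its own mean. A gene with no change at all would lie 1.22 away, and the median over 15101 genes was 1.28. The closest probe set was that of Pign, an enzyme of the GPI anchor pathway, at 0.23. Its levels were 1.30 and 1.88 with ProMyo, against 2.51 and 2.57 with saline, with the lower ProMyo value in pool 1-4 as for Mss51. Slc25a53, a member of the mitochondrial carrier family, followed at 0.28, with 0.10 and 0.94 after ProMyo, under the highest background control, and 1.64 and 1.42 after saline. Pi16, a marker of adventitial fibroblasts, lay at 0.31, with 2.58 and 2.83 with ProMyo, against 3.81 and 3.51 with saline. Primpol, a primase-polymerase of nucleus and mitochondria, also lay at 0.31, and its ProMyo values of 0.49 and 0.90 were within the controls. Nipal3, Lcat (a cholesterol-esterifying enzyme of plasma), Lrrc27 and Mgat2 (a Golgi enzyme of N-glycan synthesis) completed the 8, at 0.34 to 0.36. Their mean differences were -1.04, -0.85, -1.02 and -0.81. All 8 were chosen for this likeness, so their lower ProMyo levels add no evidence. In 4 of the 8, at least 1 ProMyo array was within the controls, whereas Pign, Pi16, Nipal3 and Mgat2 were above them on all arrays. The likeness belongs to 1 probe set of each gene. The 4 dimmer probe sets of Pign read -0.22, 0.16, 0.02 and -0.54, and the second ones of Slc25a53, Pi16, Nipal3, Lrrc27 and Mgat2 read -0.13, -0.04, 0.18, -0.09 and -0.19. All 9 had at least 2 arrays within the controls, and Primpol and Lcat had no second probe set. None of the 8 carried the Smad palindrome in its promoter window.

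**Figure D3:**
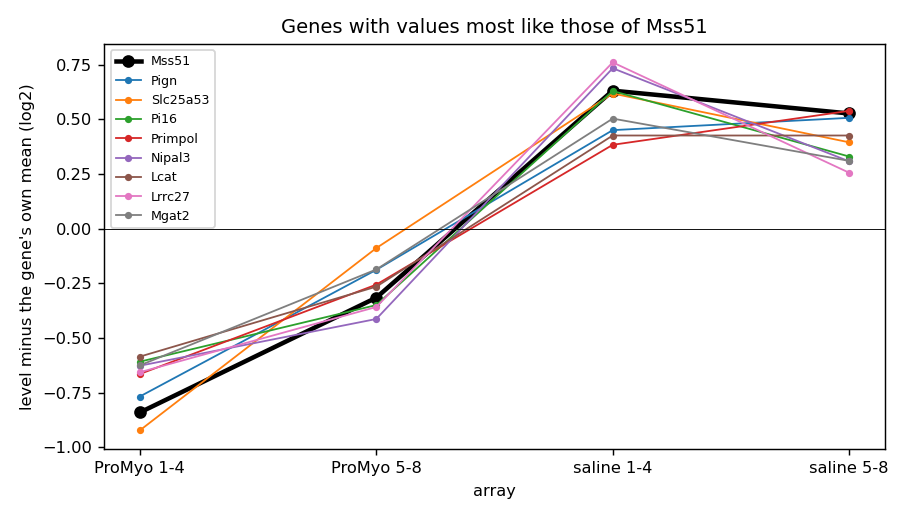
Log2 level minus the gene's own mean in each of the 4 arrays, for Mss51 (black) and the 8 genes closest to it by Euclidean distance; lines only join the points of a gene. All are lower in the ProMyo arrays, lowest in ProMyo 1-4.

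The genes next to Mss51 on chromosome 14 did not share its difference. Of the 10 nearest named genes, 5 on each side, all 10 were measured. None was lower with ProMyo in each pool and 3 (Mrps16, Anxa7 and Sec24c) were higher in each, with mean differences from -0.15 to 0.50. Anxa7, a membrane-binding annexin on one side, stood at 6.02 and 5.84 with ProMyo, against 5.83 and 5.72 with saline. Ppp3cb, the calcineurin A beta subunit on the other side, stood at 9.39 and 9.57 with ProMyo, against 9.51 and 9.45 with saline. The differences of these direct neighbours were 0.16 ± 0.16 and -0.004 ± 0.16 (log2 ± SE, n = 2 per group).

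Muscle genes lie in the same stretch. Myoz1, a Z-disc protein of fast fibres that binds calcineurin, stood at 9.63 and 9.41 with ProMyo, against 9.47 and 9.44 with saline. Synpo2l, an actin-binding Z-disc protein, stood at 7.93 and 7.81 with ProMyo, against 8.17 and 7.75 with saline. The groups overlapped at both genes. Mrps16, a protein of the mitochondrial ribosome, differed by 0.17, and Sec24c, a coat protein of vesicles that leave the endoplasmic reticulum, by 0.45. Usp54 had the widest spread, with a difference of -0.51 in pool 1-4 and 1.52 in pool 5-8, where the saline 5-8 array alone was low. The differences of Fam149b, Dnajc9 and Cfap70 were -0.06, -0.15 and 0.15, and Cfap70 was within the background controls on all arrays.

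**Figure D4:**
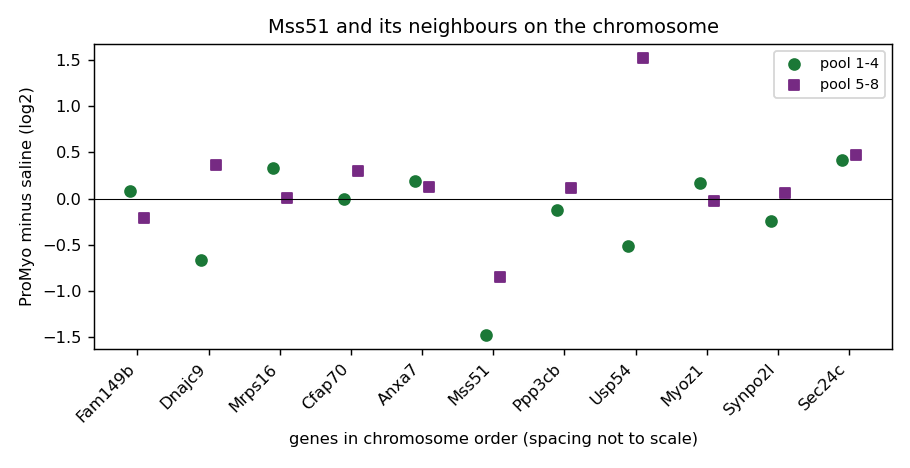
Difference, ProMyo minus saline in log2 units, in pool 1-4 (circles) and pool 5-8 (squares) for Mss51 and 5 named genes on each side in chromosome order. Mss51 is the 1 gene of the 11 below 0 in both pools; Usp54 splits between -0.51 and 1.52.

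Genes of the myostatin and activin pathway, from ligands to Smads, differed in both directions: 7 of its 22 measured genes were higher with ProMyo in each pool and 5 (Fst, Fstl3, Ltbp3, Acvr1b and Smad2) lower, with a median of 0.004. Without the saline 5-8 array the median was -0.09, and 6 were higher and 11 lower in both ProMyo arrays, where 29.5% of all genes were higher and 36.9% lower. The ligand gene Gdf11 and the protease gene Tll1 were below the filter on dim signals. Mstn, the myostatin gene, had no probe set of its own name alone and was not analysed here. Of the binding proteins that hold activins and myostatin, Fstl3 stood at 1.74 and 1.72 with ProMyo, against 2.08 and 2.78 with saline, and Fst (follistatin) at 2.90 and 3.06 with ProMyo, against 3.87 and 3.18 with saline. These gave the lowest differences of the pathway, -0.70 ± 0.27 and -0.54 ± 0.27 (log2 ± SE, n = 2 per group; limma, adjusted p = 0.82 for both). The second probe set of Fst read -0.01. Wfikkn1, another binding protein of myostatin, stood at 0.41 ± 0.18 near the background controls.

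Of the receptors and Smads, Acvr2b, the main type 2 receptor of myostatin, stood at 0.50 ± 0.28, with 1 of the saline arrays within the controls and further probe sets at 0.07 and -0.12, and Acvr2a, the other, at 0.08 ± 0.15. Smad3, which carries the signal, stood at 8.36 and 8.15 with ProMyo, against 8.02 and 7.98 with saline, higher without overlap by 0.25; its dimmer probe sets read -0.98, with most arrays within the controls, and 0.03. Smad2 stood at -0.37 ± 0.17, the type 1 receptor Acvr1b at -0.09 and Ltbp3, a latent TGF-beta binding protein, at -0.28. Smad7, an inhibitory Smad that TGF-beta signals induce in many cells, stood at 4.68 and 4.76 with ProMyo, against 4.63 and 4.87 with saline, with overlap. No gene of the pathway was as low as Mss51. Mss51 was chosen by its difference and ranked 6 from the bottom of 27156 probe sets, so few genes of any list could be.

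Other genes with a MYND zinc finger also differed in both directions. Of 18 measured, 6 were higher and 4 (Deaf1, Cbfa2t2, Smyd2 and Egln1) lower in each pool, with a median of 0.004. With saline 5-8 left out, 4 were higher and 10 lower in both ProMyo arrays, and the median was -0.15. Smyd1, a methyltransferase of heart and skeletal muscle, stood at 6.42 and 6.50 with ProMyo, against 6.61 and 6.40 with saline. The largest differences of 1 sign in both pools were those of Smyd5 (0.72 ± 0.32), Deaf1 (-0.42 ± 0.39), the corepressor Cbfa2t3 (0.37 ± 0.16) and Zmynd19 (0.34 ± 0.28), in log2 ± SE with n = 2 per group. The lowest of these 18 genes stood at -0.42, against -1.16 at Mss51, which was chosen by its difference.

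Mitochondrial genes near the yeast role of Mss51 had small and mixed differences. Of 15 nuclear-encoded subunits of cytochrome oxidase, 6 were higher and 6 lower in both pools, with a median of 0.02; without the saline 5-8 array 4 were higher and 6 lower, and without the ProMyo 1-4 array the median was -0.08. Cox7c stood at 0.63 ± 0.25, the minor isoforms Cox6b2 at 0.51 ± 0.23 and Cox4i2 at -0.41 ± 0.20, and the muscle isoform Cox8b at -0.31 ± 0.18. The Cox7c probe set was dim, at 3.12 and 2.47 with ProMyo, against 2.16 and 2.17 with saline. Cox6b2 was within the background controls in saline 5-8, at 0.68, and Cox4i2 came close to them in ProMyo 5-8, at 0.99. The common subunit Cox4i1 was at 10.54 and 10.47 in ProMyo muscle and at 10.44 in both saline arrays. Of 21 assembly factors of cytochrome oxidase, 10 were higher and 3 (Pet100, Cox15 and Coa3) lower in each pool, with a median of 0.10. It was -0.01, with 5 higher and 5 lower, when saline 5-8 was left out. Sco2, which delivers copper to the enzyme, stood at 0.48 ± 0.16, Smim20, which stabilises new Cox1, at 0.35 ± 0.20, Pet100 at -0.34 ± 0.16 and Cox18 at 0.29 ± 0.20.

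Of 16 factors of mitochondrial translation, 9 were higher and 1 (Guf1) lower in each pool, with a median of 0.19 that was 0.07 in pool 1-4 and 0.28 in pool 5-8. Without the saline 5-8 array the median was -0.01, and 6 were higher and 2 lower in both ProMyo arrays. Gfm2, which recycles mitochondrial ribosomes, stood at 4.13 and 3.91 with ProMyo, against 3.47 and 3.03 with saline, a difference of 0.77 ± 0.21. Mterf4 followed at 0.47 ± 0.37, Mtpap, the mitochondrial poly(A) polymerase, at 0.34 ± 0.24, and Mtrf1l, a release factor, at 0.30 ± 0.19. Lrpprc, which stabilises mitochondrial messenger RNA, stood at 0.24.

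Fuel use is the process that loss of Mss51 has been reported to alter. Of 25 genes that take up or oxidise fatty acids, 14 were higher and 2 (Acot2 and Eci1) lower with ProMyo in each pool, with a median of 0.19. Etfb and Etfdh, which pass electrons to the respiratory chain, stood at 0.64 ± 0.17 and 0.40 ± 0.16, Echs1 (enoyl-CoA hydratase) at 0.36 ± 0.21 and Acadl, an acyl-CoA dehydrogenase, at 0.35 ± 0.15. Without the saline 5-8 array the median was 0.10, and 6 were higher and 5 lower in both ProMyo arrays. Of 14 genes of glycolysis and glycogen use, 7 were higher and 4 (Slc2a4, Phkg1, Phka1 and Tpi1) lower, with a median of 0.03. Without the saline 5-8 array 3 were higher and 5 lower, with a median of 0.01, and without the ProMyo 1-4 array the median was -0.01. Gpd1 stood at 0.33 ± 0.23 and the glucose transporter Slc2a4 at -0.17 ± 0.16. Of 18 genes of PGC-1 and its partners, 6 were higher and 3 (Esrra, Sirt3 and Gabpa) lower, with a median of 0.04 that was -0.01 with quantile normalization and 0.0006 without the saline 5-8 array, where 6 were higher and 5 lower; the nuclear receptors Esrra and Esrrg stood at -0.35 ± 0.21 and 0.29 ± 0.17, and the mitochondrial transcription factor Tfb2m at 0.31 ± 0.21.

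Mss51 was set beside fibre genes because it is expressed in muscle fibres. In bulk muscle, fewer cells of a type and less RNA per cell cannot be told apart. The 10 muscle fibre markers, among them Acta1, Ckm and Ttn, differed by -0.17 to 0.17, with a median of 0.07 that was -0.004 with quantile normalization and 0.02 without the saline 5-8 array, and their summed linear signal was 20700 and 20200 in ProMyo muscle against 20000 and 18800 in saline muscle. Of 15 fast fibre genes, 12 were higher and 0 lower in each pool, with a median of 0.13 and a narrow range from -0.07 to 0.21. With quantile normalization 5 were higher and 2 lower, with a median of 0.02, where 3783 of the 15102 genes were higher and 4506 lower. Leaving out saline 5-8 gave 11 higher and 2 lower, with a median of 0.08. Mylpf, Actn3 and Casq1 each stood at 0.21 and Mybpc2 at 0.20. Of 15 slow fibre genes, 3 (Tnni1, Mybpc1 and Tpm3) were higher and 8 lower in each pool, with a median of -0.13. Of these, Tnni1 was within the background controls on all arrays. With quantile normalization 1 of the 15 slow fibre genes was higher and 10 lower. Myl2 stood at -1.85 ± 0.65 and was the 1 gene of all these lists as low as Mss51; Csrp3, a muscle LIM protein, stood at -0.71 ± 0.23, Myl3 at -0.35 ± 0.19 and Tnnt1 at -0.25 ± 0.25. Of 9 genes that respond to loss of the nerve, 6 were higher and 1 lower, with a median of 0.14 that was -0.07 without the saline 5-8 array, where 4 were higher and 2 lower; Ncam1, a cell adhesion molecule, stood at 1.00 ± 0.30 and the stress gene Gadd45a at 0.82 ± 0.15. Chrnd, the lower one, was within the background controls.

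**Figure D5:**
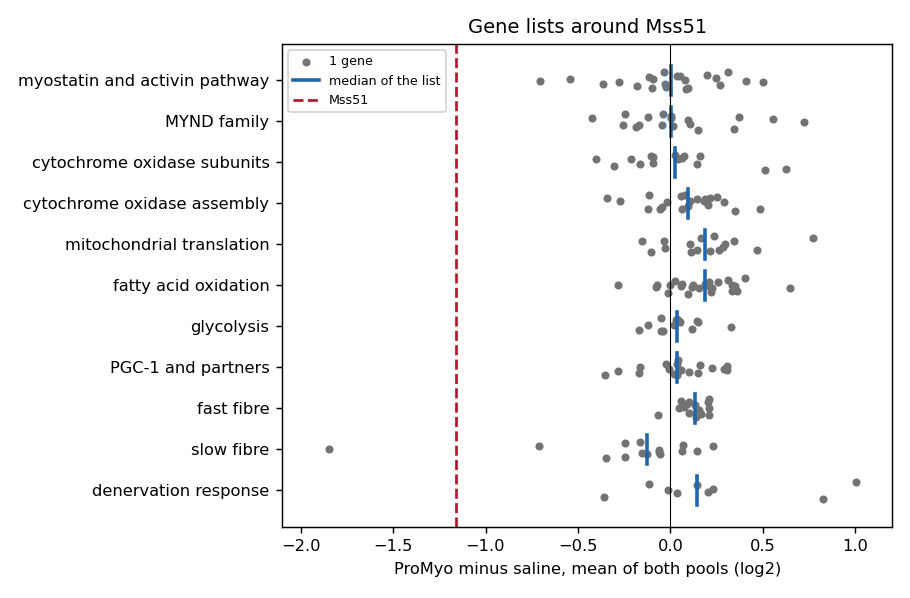
Mean difference of both pools, ProMyo minus saline in log2 units, for each gene (grey points) of 11 lists, with list medians (blue bars) and Mss51 (red dashed line at -1.16). Medians run from -0.13 to 0.19, and 1 gene, Myl2 at -1.85, lies beyond Mss51.

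Markers of other cell types were read beside these values. Of 10 fibroblast markers, 8 were lower in each pool and 1 (Lum) higher, with a median of -0.25. Without the saline 5-8 array 8 were lower and 1 higher, with a smaller median of -0.15. Col1a1 and Col1a2, the chains of type I collagen, stood at -0.68 ± 0.18 and -0.78 ± 0.15 (log2 ± SE, n = 2 per group). The lowest of the list was Pi16 at -0.96 ± 0.20, which is also 1 of the 8 genes most like Mss51. Other members differed little, with Pdgfra at -0.10, Dpt at -0.06 and Dcn at 0.03. The summed linear signal of the fibroblast list was 1730 and 1690 with ProMyo, against 2070 and 2240 with saline. Such sums weigh the brightest member most, here Gsn, at 9.47 and 9.41 with ProMyo, against 9.70 and 9.79 with saline. Of 10 macrophage markers, 5 (C1qb, Mrc1, Adgre1, Csf1r and Itgam) were lower and 1 (Cd163) higher, with a median of -0.30 and sums of 190 and 175 with ProMyo, against 245 and 204 with saline. Leaving out ProMyo 1-4 gave a median of -0.12 and leaving out ProMyo 5-8 one of -0.10, and 2 markers were higher and 6 lower without the saline 5-8 array.

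The 8 endothelial markers had a median of 0.10 (-0.01 without the saline 5-8 array) and sums of 144 and 142 with ProMyo, against 144 and 121 with saline. Of the 6 smooth muscle markers, 2 (Tagln at 0.78 and Pdgfrb at 0.19) were higher and 1 (Acta2 at -0.46) lower in each pool. The median of the 6 was 0.09, or 0.20 with the mean of probe sets. Their sums were 523 and 621 with ProMyo, against 585 and 549 with saline. For 5 satellite cell markers the median was 0.03 (-0.08 without the saline 5-8 array), and the sums were 41.1 and 42.6 with ProMyo, against 67.3 and 35.8 with saline. The brightest smooth muscle marker was Rgs5, at 8.58 to 8.89. Among satellite cell markers it was Myod1, at 5.39 in saline 1-4 and 3.98 in saline 5-8, so these sums largely follow 1 gene each. Markers of adipocytes, Schwann cells and red blood cells above the filter numbered 3, 4 and 1, with medians of -0.46, -0.14 and -0.17, and without the saline 5-8 array the medians were -0.02, 0.0015 and -0.22.

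All 10 fibre markers exceeded the background controls on every array. So did 10 of 10 fibroblast, 8 of 8 endothelial, 6 of 6 smooth muscle, 8 of 10 macrophage, 5 of 6 satellite cell and 3 of 4 Schwann cell markers. None of the 4 adipocyte and 3 red blood cell markers did so on all arrays, and Lep, Cidec, Alas2, Hba-a1 and Slc4a1 stayed within the controls throughout. The part of any of these cells in the Mss51 difference was not tested.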

How the data were processed

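Total RNA of tibialis cranialis muscle was measured on Affymetrix arrays of the mouse genome, each with RNA of 4 animals, labelled with Nugen kits per the labels' protocols. The deposited values are log2 expression for each probe set. The submitters' processing notes name RMA and Affymetrix Expression Console; no version or log base was found, and log2 was taken from the range of -0.45 to 13.2. Array medians near 1 are low for RMA, so folds hold on the deposited scale. Arrays have no read depth, and their number, 2 per group, limits the precision; p-values measure the spread between these pools.

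Of 45101 probe sets, 64 were controls, 34945 had 1 gene symbol, 932 several and 9160 none. Of the gene identifiers, 34741 were found in RefSeq GRCm38.p6, and 0 symbols changed. The brightest probe set stood for a gene, and a mean of at least 0.45, the 25th percentile, was required, which kept 15102 of 18193 genes. This cutoff lies below the highest background control, 0.99. The genes kept, and the shares given over all genes, therefore include genes within the controls. No further normalization was applied. The groups were compared with limma 3.58.1 (R 4.3.3, lmFit and eBayes, Benjamini-Hochberg, threshold 0.05), and the fit was tested on simulated data. Each mouse supplied both legs, and pools with the same number were taken to be the same animals and so paired. The fit used no block. Over genes, the residuals of the pools with the same number had a correlation of 0.16. Lists and ranks were described by counts and medians without a test.

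Mss51, the lists and the rules were chosen with earlier results of these data known. Named genes were Mss51, the pathway core, the 8 genes most like it, 5 neighbours on each side, up to 4 members per list with the largest differences of 1 sign in both pools, neighbours in rank, and members behind counts of 5 or fewer. A few others with a known role (Smyd1, Cox4i1, Lrpprc) and further probe sets were chosen after their values were seen. Alternatives were a replicate block, 2 filters, a trend, 2 normalizations, other summaries of probe sets, other brightness windows and leaving out each array; list counts under quantile normalization and without the saline 5-8 array were added after seeing the data. The promoter window came from the RefSeq table; which start this muscle uses was not measured.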

Additional observations from a re-analysis of the deposited data

How the results depend on the processing

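The Mss51 difference, -1.16, was also -1.16 with median-centred arrays and -1.22 with quantile normalization. A replicate block and the mean of probe sets could not change it. The groups are balanced over the pools, and Mss51 has 1 probe set. Leaving out 1 array in turn gave -1.42 to -0.90. Mss51 kept the lowest difference in windows of 200, 500 and 1000 probe sets, with both normalizations and without each array, and ranked 6 over all probe sets above the filter. The count of genes past limma's threshold was 0 in the main comparison and in all 12 alternatives, with 353 to 1601 features at an unadjusted p under 0.05; with the paired pools as a block it was 0, with 1039. The count of genes 1.5-fold apart in both pools was 241, but 117 with the mean of probe sets and 458 over every probe set, which counts more features. It ran from 421 to 1095 without 1 array (without ProMyo 1-4 528, without ProMyo 5-8 421, without saline 1-4 1095, without saline 5-8 610, of which 348 were lower), a setting added after the data were seen in which both differences share 1 array. With quantile normalization, medians of the fast fibre, glycolysis, PGC-1, fatty acid, muscle fibre marker and endothelial lists moved to 0.02, 0.0003, -0.01, 0.14, -0.004 and 0.04. Of 179 list medians under other settings, 140 moved by less than the spread between pools and 39 by more; the cause was not tested. With a single probe set of Mss51 and 2 arrays per group, neither a probe effect nor the spread between animals could be measured.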
